A study of Homo sapiens with 6 samples.

Results

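The proteasome genes are the 50 protein-coding RefSeq genes on hg38 whose symbols begin with PSMA, PSMB, PSMC, PSMD, PSME, PSMF or PSMG followed by a number, out of 20037 protein-coding genes on chromosomes 1 to 22, X and Y. Peaks inside each gene or within 3 kb of it were taken from 4 ChIP-seq peak lists. They came from clones 4 and 5 of K562, a human chronic myelogenous leukemia cell line, in which every sample, inputs included, co-overexpressed Flag-PLAG1-S and USF2. Each clone gave a library precipitated through the FLAG tag of PLAG1-S, a library precipitated with an antibody to USF2 and an input without antibody, so that a factor had 2 libraries. The study's methods describe a bidirectional vector that carries both transgenes, joined by a self-cleaving peptide, without naming it for these clones. Each library stands for 1 clone, and no cells without overexpression were compared here. PLAG1-S is the short form of a C2H2 zinc finger protein that recognizes a G-rich bipartite sequence, and USF2 is a basic helix-loop-helix leucine zipper protein that recognizes the E-box. Peak lists hold no expression values, so that neither the cell line's markers nor transcription of the proteasome genes could be examined here.

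The 26S proteasome degrades proteins that carry chains of ubiquitin. Its barrel-shaped 20S core is built of outer rings of alpha subunits (the PSMA genes) and inner rings of beta subunits (the PSMB genes), some of which hold the catalytic sites. A 19S cap of ATPases (PSMC) and non-ATPase subunits (PSMD) recognizes, deubiquitinates and unfolds substrates, whereas the PSME products form alternative activators of the core. PSMF1 encodes the core regulator PI31, and the PSMG products are chaperones of core assembly. The transcription factor NFE2L1 and its relative NFE2L2, paired with small MAF proteins, can bind antioxidant response elements at proteasome promoters. PSMC3IP, a cofactor of meiotic recombination, and PSME3IP1, a binding partner of the PSME3 product, met the symbol rule without being subunits, and 48 genes remained without them.

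The stretches under PLAG1-S summits at gene starts are shown first so that the letters there can be compared with those that each factor is known to read. Of the 50 genes, 44 had a 300-base start window in the RefSeq table (GRCh38.p14), which runs from 250 bases before the annotated start to 50 bases after it. PSMA7, PSMB1, PSMB6, PSMB7, PSMD4 and PSMG3 had none there. The stretches below extend up to 40 bases to each side of the clone 4 PLAG1-S summit, cover bases before the start only, and are written 5′ to 3′ on the strand of the gene. Capitals mark the E-box CACGTG and the antioxidant response element core TGACNNNGC on either strand. Copies of the G-rich core GGGGC, counted below, are left in lower case. All 7 genes whose reproducible PLAG1-S summit fell in the window before the start are shown. The first 3 also had a USF2 peak in clone 4, and the other 4 had PLAG1-S peaks without USF2.
PSMB3, chr17:38752491-38752535, plus strand: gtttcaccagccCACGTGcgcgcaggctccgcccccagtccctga
PSMD9, chr12:121888625-121888705, plus strand: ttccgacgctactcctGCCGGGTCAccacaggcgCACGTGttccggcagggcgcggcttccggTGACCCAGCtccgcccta
PSMD6, chr3:64023563-64023643, minus strand: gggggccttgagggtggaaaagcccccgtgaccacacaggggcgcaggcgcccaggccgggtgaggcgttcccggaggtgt
PSME3, chr17:42833306-42833386, plus strand: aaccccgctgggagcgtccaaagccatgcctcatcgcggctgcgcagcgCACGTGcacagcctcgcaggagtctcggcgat
PSME3IP1, chr16:57186191-57186271, minus strand: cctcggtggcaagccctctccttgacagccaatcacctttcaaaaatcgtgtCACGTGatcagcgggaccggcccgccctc
PSMA4, chr15:78540310-78540390, plus strand: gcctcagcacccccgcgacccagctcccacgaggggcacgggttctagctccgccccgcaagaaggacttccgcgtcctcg
PSMC4, chr19:39970915-39970990, plus strand: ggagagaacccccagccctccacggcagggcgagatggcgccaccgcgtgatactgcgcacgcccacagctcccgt

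The stretches of PSMD6, PSMA4 and PSMC4 hold no E-box, and that of PSMC4 holds none of the searched motifs. Among the 44 start windows, 4 held an E-box, and these were the windows of PSMB3, PSMD9, PSME3 and PSME3IP1. That is 9.09% of the proteasome windows, beside 8.88% of the 15842 windows of protein-coding genes. All 4 had a reproducible PLAG1-S peak, against 10 of the 40 windows without the hexamer (25%). Over all protein-coding genes the same shares were 71.6% of 1407 windows with an E-box and 26.2% of 14435 windows without one. With 4 windows the proteasome share was not tested against the rest. The PLAG1-S summit lay 8 bases from the E-box at PSMB3, 1 base at PSMD9, 9 bases at PSME3 and 12 bases at PSME3IP1. At all genes with a summit and an E-box in the window the median distance was 6 bases, with quartiles of 2 and 16 bases. A match is a description of letters and not a binding site.

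The G-rich core GGGGC, searched on both strands, was present in 34 of the 44 windows (77.3%) and in 79.3% of all windows. It was found in 12 of the 14 proteasome windows with a PLAG1-S peak (85.7%) and in 22 of the 30 without one (73.3%). For all genes these shares were 93.1% and 73.3%. The antioxidant response element core was present in 13 of the 44 proteasome windows (29.5%), beside 14.3% of all windows, a difference that was not tested. It was found in 6 of the 14 proteasome windows with a PLAG1-S peak (42.9%) and in 7 of the 30 without one (23.3%). For all genes these shares were 17.4% and 12.9%, and these differences were not tested either. PSMD9 held this core on each side of its E-box, and PSMD3 was the other window with more than 1 copy. An antioxidant response element core contains the G-rich core where its 3 free bases are all G, and such a stretch counts for both. Neither of them contains the E-box, although neighbouring copies can overlap.

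A reproducible peak needed overlap by 1 bp or more between the clone 4 and clone 5 lists of a factor, and clone 4 coordinates were kept. By this rule 32 of the 50 proteasome genes (64.0%) had a reproducible PLAG1-S peak, whereas 52.0% of all protein-coding genes did. Reproducible USF2 peaks were found at 4 of the 50 (8.00%), beside 10.3% of all genes. The same 4 genes, PSMA7, PSMB10, PSMD11 and PSMG1, were co-bound, meaning that the reproducible PLAG1-S peak lay within 100 bp of the reproducible USF2 peak, and 9.98% of all genes were. PLAG1-S occupancy in at least 1 clone was listed at 39 genes (78.0%, beside 67.8%) and USF2 occupancy in at least 1 clone at 10 genes (20%, beside 27.1%). No locus was tested against the spread between the 2 clones, and none of these shares was tested against its background.

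**Figure D1:**
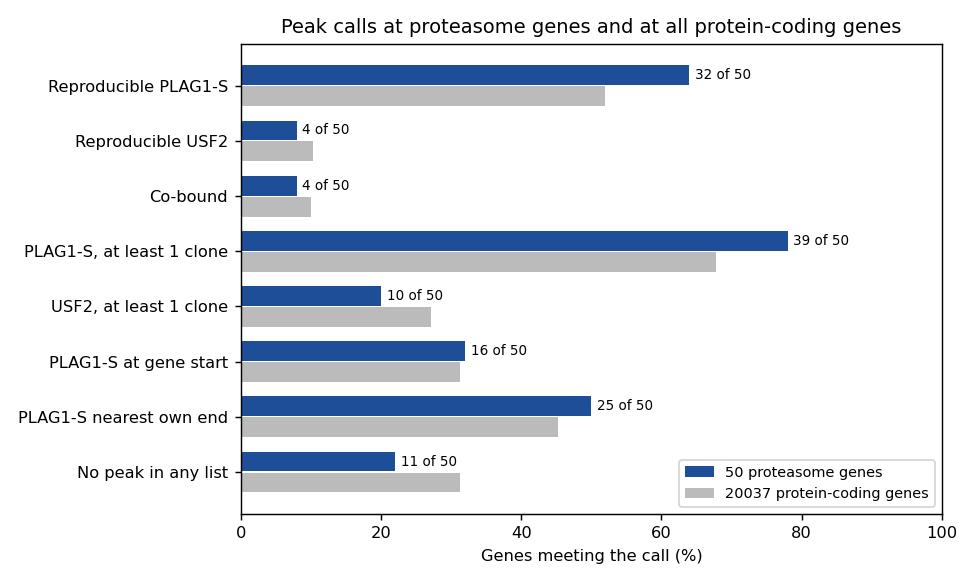
Share of genes (x axis, percent) meeting each call (y axis) among the 50 proteasome genes (blue, with counts) and all 20037 protein-coding genes (grey). The blue bar is longer for PLAG1-S within the 3 kb window (32 of 50), shorter for USF2 and co-bound calls (4 of 50), and about equal at the gene start (16 of 50).

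The PLAG1-S share depended on how much sequence was searched around each gene. At the gene start, taken as the 300-base window or, for the 6 genes without one, as 1 kb around either end, 16 of the 50 genes (32%) had a reproducible PLAG1-S peak, beside 31.3% of all protein-coding genes. When a peak counted only for the protein-coding gene whose end was nearest to its summit, the counts were 25 of 50 (50.0%) and 45.3%. The proteasome genes were shorter than the rest, with a median length of 13552 bp against 24115 bp. In total 11 genes (22%) had no peak in any list, beside 31.2% of all genes.

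Fold enrichment is the height of the peak over the local background at its summit, after the same constant is added to both. The strongest reproducible peak of each of the 32 genes had a median clone 4 fold of 6.99, with quartiles of 5.15 and 9.70. Over the 10423 protein-coding genes with such a peak the median was 8.17 and the quartiles 5.65 and 13.3. For the strongest clone 4 peak of each gene, reproducible or not, the medians were closer, 6.80 at 37 proteasome genes and 7.11 at all genes, and neither difference was tested. Of the 32 genes, 12 lay above the median of all genes and 5 above the upper quartile. PSMB3 alone exceeded 21.9, the fold that 10.0% of all genes with a peak exceeded. The 4 reproducible USF2 peaks had a median clone 4 fold of 6.38, against 8.38 at 2073 genes.

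**Figure D2:**
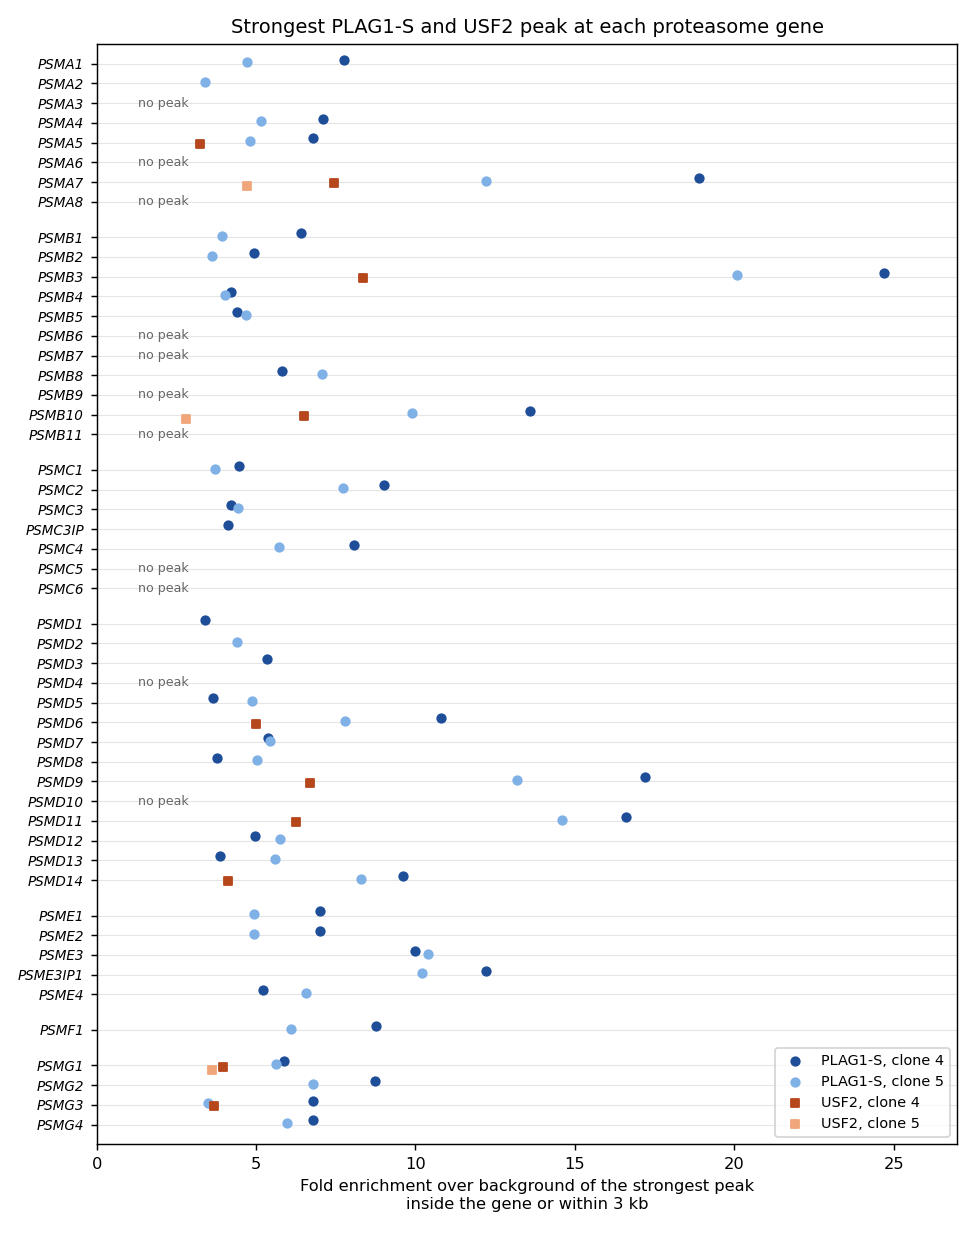
Fold enrichment (x axis) of the strongest peak inside each proteasome gene or within 3 kb (y axis, genes in blocks by symbol), with circles for PLAG1-S and squares for USF2, dark for clone 4 and light for clone 5. PSMB3, PSMA7, PSMD9, PSMD11 and PSMB10 stand to the right of 13 in clone 4, and 11 genes have no peak. The clone 5 USF2 peak beside PSMD11 lies just outside its 3 kb window and is not drawn.

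The groups by role are small, and their counts, given below, were not tested and are to be read against the shares of all genes above. In the alpha ring, 4 of the 8 PSMA genes had a reproducible PLAG1-S peak, 2 had USF2 in at least 1 clone, and PSMA3, PSMA6 and PSMA8 had no peak. PSMA8 encodes the alpha subunit of the testis proteasome. PSMA7 (NCBI Gene 5688), a constitutive alpha subunit, held the strongest site of this ring, at chr20:62145955-62146573. Its PLAG1-S fold was 18.9 in clone 4 and 12.2 in clone 5, and its USF2 fold was 7.43 in clone 4 and 4.73 in clone 5. All 4 lists held this site, and the USF2 summits lay 9 bp and 50 bp from the clone 4 PLAG1-S summit. The site lay outside the gene, and the nearest end of a protein-coding gene was that of SS18L1, 2524 bp away. Nearer to PSMA7 itself, at 428 bp and 72 bp from its end, 2 further reproducible PLAG1-S sites had clone 4 folds of 6.99 and 5.32 and no USF2 peak.

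PSMA5 had PLAG1-S folds of 6.80 in clone 4 and 4.82 in clone 5 at a site 344 bp before its start, with a USF2 peak of fold 3.25 in clone 4 and none in clone 5. PSMA4 was occupied by PLAG1-S alone, 55 bp before its start, with folds of 7.11 and 5.15. PSMA1 had 3 reproducible PLAG1-S sites, all near the end of the gene that also adjoins PDE3B and 122799 bp or more from the start that the RefSeq table annotates. PSMA2 had a PLAG1-S peak in clone 5 only, with a fold of 3.41.

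In the beta ring, 6 of the 11 PSMB genes had a reproducible PLAG1-S peak and 4 had no peak, namely PSMB6, PSMB7, PSMB9 and PSMB11. PSMB3 (NCBI Gene 5691), which encodes a noncatalytic beta subunit, carried the highest PLAG1-S enrichment of any proteasome gene, with a fold of 24.7 in clone 4 and 20.1 in clone 5. The clone 4 peak ranked 690th of 37574 peaks by fold. Its summit lay 246 bp before the start, beside the E-box shown above, and 2 bp from the summit of a clone 4 USF2 peak with a fold of 8.37. No clone 5 USF2 peak was listed there, although the USF2 fold in clone 4 was the highest of any proteasome gene. The count over the summit recovered from the deposited fold and p was 108 PLAG1-S fragments (95% Poisson interval 88.6 to 130) in clone 4 and 83 (66.1 to 103) in clone 5, over local backgrounds of 3.40 and 3.17. These intervals cover counting error only.

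PSMB8, PSMB9 and PSMB10 encode the inducible catalytic subunits of the immunoproteasome, and PSMB11 that of the thymoproteasome. PSMB10 (NCBI Gene 5699) was co-bound inside the gene, at chr16:67935261-67936154, 1084 bp from its start. PLAG1-S folds there were 13.6 in clone 4 and 9.88 in clone 5, and USF2 folds were 6.51 and 2.81, the latter at a −log10 q of 2.22. The USF2 summits lay 95 bp and 130 bp from the clone 4 PLAG1-S summit. PSMB8 had a PLAG1-S site with folds of 5.80 and 7.08, whose summit was nearest to TAP2, a peptide transporter gene that is its neighbour. The immunoproteasome genes ranged from all 4 lists at PSMB10 to none at PSMB9. The catalytic subunit of the constitutive core PSMB5 had PLAG1-S folds of 4.4 and 4.7, 696 bp past its start. PSMB1 had a PLAG1-S peak in each clone, with folds of 6.40 and 3.93, that did not overlap.

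The 7 PSMC symbols are those of the cap ATPases and PSMC3IP, and none had a USF2 peak in either clone, where 27.1% of all genes had one in at least 1 clone. A reproducible PLAG1-S peak was listed at 4 of them, all ATPase genes, and PSMC5 and PSMC6 had no peak of any kind. PSMC2 had the highest PLAG1-S folds, 9.0 in clone 4 and 7.72 in clone 5, at a summit 424 bp past its start and nearest to its neighbour PMPCB. The PSMC4 summit lay 215 bp before the start, with folds of 8.06 and 5.71. The peak at PSMC3IP was found in clone 4 only, with a fold of 4.13.

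Of the 14 PSMD genes, 8 had a reproducible PLAG1-S peak and 4 had USF2 in at least 1 clone, the latter near the 27.1% of all genes. PSMD4, a ubiquitin receptor gene, and PSMD10, a chaperone gene, had no peak. PSMD9 (NCBI Gene 5715), which encodes an assembly chaperone of the cap, had PLAG1-S folds of 17.2 and 13.2 and a clone 4 USF2 fold of 6.70. That summit lay between divergent genes, 125 bp before the start of PSMD9 and 54 bp from HPD, a gene of tyrosine catabolism. PSMD11 (NCBI Gene 5717), a lid subunit gene, was co-bound at chr17:32486131-32486978, beyond its 3′ end and 502 bp from CDK5R1. PLAG1-S folds at this site were 16.6 and 14.6 and USF2 folds 6.26 and 5.17, with the USF2 summits 11 bp and 13 bp from the PLAG1-S summit. At its own start PSMD11 had a weaker site with PLAG1-S folds of 5.17 and 4.07 and no USF2 peak. The clone 5 summit there lay 255 bp from that of clone 4, and a nearer clone 5 peak had a fold of 3.75.

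PSMD6, another lid subunit gene, had PLAG1-S folds of 10.8 and 7.78 at a summit 109 bp before its start, and a clone 4 USF2 fold of 5.00 with its summit 5 bp away. The stretch printed above for this site holds GGGGC copies but no E-box. PSMD14, which encodes the deubiquitinase of the lid, had folds of 9.60 and 8.29 for PLAG1-S at 263 bp past its start and of 4.11 for clone 4 USF2. None of the 3 had a USF2 peak in clone 5 (PSMD6, PSMD9 and PSMD14). PSMD5, a chaperone gene, had PLAG1-S folds of 3.29 and 4.10 at one site and 3.64 and 4.88 at the other, over a clone 4 local background of 9.04 and 8.62, against a median of 4.00 for the clone 4 peaks of proteasome genes. PSMD1, PSMD2, PSMD3 and PSMD8 had PLAG1-S peaks without overlap between clones, with folds from 3.40 to 5.34.

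The 5 PSME symbols are those of the activator genes and PSME3IP1. All 5 had reproducible PLAG1-S peaks (52.0% of all genes) and none had a USF2 peak in either clone (27.1% of all genes had one in at least 1). Of the 5, only 2 had a reproducible PLAG1-S peak nearest to their own end. PSME3, which encodes the nuclear activator of the core, had folds of 10.0 in clone 4 and 10.4 in clone 5 at 51 bp before its start, with 46 (33.7 to 61.4) and 45 (32.8 to 60.2) fragments over the summit. PSME3IP1 had folds of 12.2 and 10.2 at 115 bp before its start, and an end of RSPRY1 lay 79 bp from that summit. PSME1 and PSME2, which encode the interferon-inducible activator PA28, shared 1 reproducible PLAG1-S peak with folds of 6.99 and 4.93. Its summit lay 46 bp from EMC9 and 4973 bp from the nearer of their starts. PSME2 also had a weaker reproducible site 1153 bp before its start, nearest to RNF31, with folds of 4.74 and 4.17. At PSME1 a clone 4 peak with a fold of 4.74 lay 153 bp past the start and overlapped no clone 5 peak. PSMF1 had 2 reproducible sites inside the gene, with clone 4 folds of 6.06 and 8.77, and neither lay at its start.

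All 4 assembly chaperone genes, PSMG1 to PSMG4, had reproducible PLAG1-S peaks nearest to their own ends, as did 45.3% of all genes. The strongest reproducible site of PSMG2, with PLAG1-S folds of 8.73 and 6.80, lay inside the gene but 52 bp from CEP76. The PSMG2 sites nearest to its own end had lower folds and lay 1570 bp and 1227 bp before its start. PSMG1 (NCBI Gene 8624) was co-bound across its start, at chr21:39182846-39183571. The PLAG1-S folds there were 5.89 and 5.61 and the USF2 folds 3.97 and 3.61. These were the lowest PLAG1-S folds of the 4 co-bound sites. In chromosome coordinates the clone 4 and clone 5 USF2 summits lay at -43 bp and -188 bp from the clone 4 PLAG1-S summit. PSMG3 had PLAG1-S folds of 6.80 and 3.49 and a clone 4 USF2 fold of 3.69, which rested on 15 fragments (8.40 to 24.7). Of the 4 co-bound sites, 2 (PSMB10 and PSMG1) were nearest to the proteasome gene itself.

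**Figure D3:**
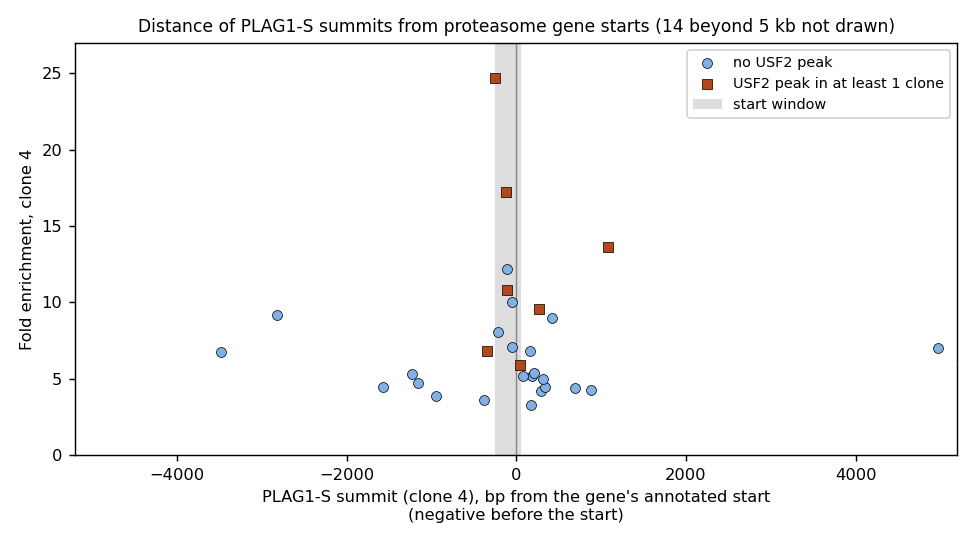
Clone 4 PLAG1-S fold (y axis) against the distance of the summit from the annotated start (x axis, bp) for reproducible sites at proteasome genes with a start window, with squares where USF2 was present in at least 1 clone. Of 44 site and gene pairs, 30 lie within 5 kb and are drawn. The highest folds, 24.7 at PSMB3 and 17.2 at PSMD9, fall in the shaded window before the start.

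The 32 genes shared 47 distinct reproducible PLAG1-S sites, of which 32 were nearest to a proteasome gene and 15 (31.9%) to another gene. Among pairs of a site and a gene with a known start, 20 of 44 summits (45.5%) lay within 500 bp of it, 9 before and 11 after, beside 36.8% of 15976 such pairs over all genes. The median distance was 914 bp at proteasome genes and 1362 bp at all genes.

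USF2 was present within 100 bp in at least 1 clone at 10 of the 47 sites (21.3%), and 4 (8.51%) were co-bound. At reproducible PLAG1-S sites of all protein-coding genes these shares were 25% and 10.4%. The 10 sites with USF2 had a median clone 4 PLAG1-S fold of 12.2 and the 37 without it 5.39. The medians over all protein-coding genes were 12.0 and 5.68, so that sites with USF2 had the higher PLAG1-S fold in either set. Every USF2 peak within the windows of the 50 genes, 10 in clone 4 and 3 in clone 5, lay at a reproducible PLAG1-S site. Such coincidence was common elsewhere, as 2073 protein-coding genes had a reproducible USF2 peak and 2000 had a co-bound peak. For USF2 peaks of a single clone the share over all genes was not counted.

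PLAG1-S enrichment was higher in clone 4 than in clone 5 at 31 of the 47 sites, beside 14239 of all 21469 reproducible sites. The ratio of clone 5 to clone 4 had a median of 0.851 and the lowest was 0.513, at PSMG3. At 4 PSMG2 sites pairs of clone 4 peaks matched the same clone 5 peak, so that the ratio there, up to 1.72, can compare different summits. Over the 43 other sites the median was 0.845 and the highest ratio 1.45, at PSMD13. There too the ratio took the strongest overlapping clone 5 peak, whose summit lay up to 525 bp from that of clone 4, at PSMC2. Over all 21469 reproducible sites the median ratio was 0.887. Clones 4 and 5 had 65 and 58 PLAG1-S peaks at proteasome genes, and 72.3% and 82.8% of them overlapped a peak of the other clone, beside 57.1% and 72.6% of the whole lists. For USF2 these were 4 of 10 clone 4 peaks (40%, beside 25.8%) and all 3 clone 5 peaks (beside 55.7%). The clone 5 USF2 list was the shorter, with 4369 peaks against 9338, and its part in the 6 sites seen in clone 4 only was not tested.

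**Figure D4:**
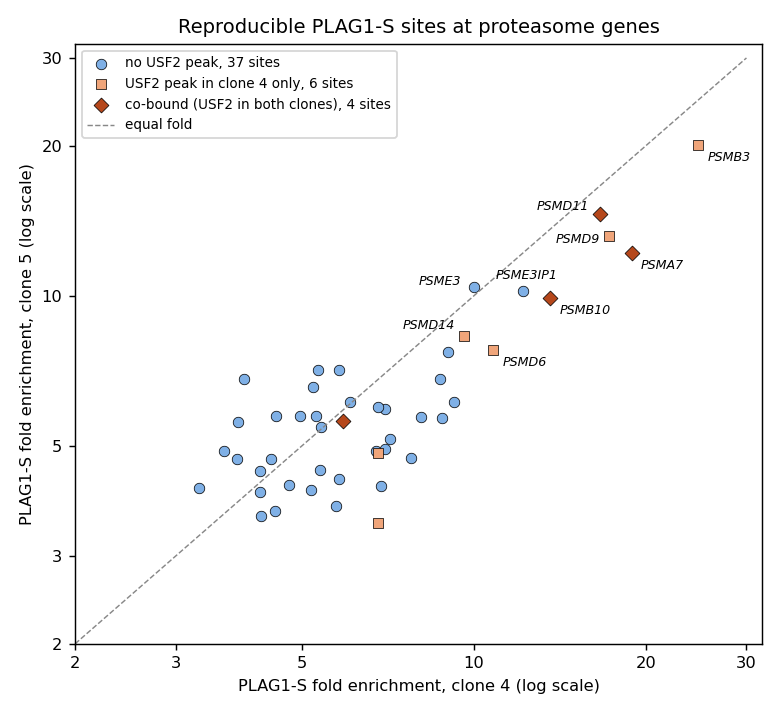
PLAG1-S fold in clone 4 (x axis) and clone 5 (y axis), both on log scales, at the 47 reproducible sites, with squares for the 6 sites with USF2 in clone 4 only and diamonds for the 4 co-bound sites. The dashed line marks equal folds, and 31 sites fall below it. Of all 21469 reproducible sites, 14239 had the higher fold in clone 4.

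Other genes of the pathway under other symbols were counted by the same rule. Of 34 listed genes, 30 had a reproducible PLAG1-S peak, 8 a reproducible USF2 peak and the same 8 a co-bound peak, beside 52.0%, 10.3% and 9.98% of all genes. Their median PLAG1-S fold was 7.63, beside 8.17. UBB, a polyubiquitin gene, and UBA6, a ubiquitin-activating enzyme gene, had no peak. Among 12 genes of subunits and cofactors the counts were 11 for PLAG1-S and 2 for co-binding. The co-bound genes were USP14, the proteasome-associated deubiquitinase, with PLAG1-S folds of 27.5 and 24.7 and USF2 folds of 5.79 and 6.53, and TXNL1, a thioredoxin-like partner of the cap, whose PLAG1-S folds were 25 and 15 and whose USF2 folds were 8.15 and 5.95. The PLAG1-S folds of USP14 exceeded those of PSMB3 in both clones, whereas the PLAG1-S folds of TXNL1 were close to PSMB3 in clone 4 and lower in clone 5.

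Among 14 ubiquitin genes, E1 enzymes and shuttle factors, 11 had reproducible PLAG1-S peaks. All 8 genes on the list of regulators of proteasome transcription had reproducible PLAG1-S peaks, with a median fold of 10.3, and 3 were co-bound. MAFG, which encodes a small MAF partner of NFE2L1 and NFE2L2, had the highest values of the pathway, with PLAG1-S folds of 36.5 and 29.4 and USF2 folds of 19.6 and 12.3, at a site 3494 bp from its nearer end. MAFF, of the same family, reached PLAG1-S folds of 22.4 and 21.4, and its USF2 folds were 8.94 and 5.14. NFE2L2 was co-bound at lower enrichment, at PLAG1-S folds of 5.80 and 6.33 and USF2 folds of 3.69 and 3.28. These lists were chosen with results of the same data known, and their counts were not tested against the background.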

How the data were processed

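ChIP-seq peaks of 4 immunoprecipitated libraries (PLAG1-S and USF2, clones 4 and 5) were used, and the 2 inputs entered only through the authors' peak calling. The submitters' processing notes name HISAT2 2.0.4, cutadapt, SAMtools, MACS2, bedtools, HOMER and FastQC and the build GRCh38/hg38, and the authors called peaks per library against the merged inputs. The fold, the −log10 p, the −log10 q and the score are values deposited by the authors at each summit. The fold was read as a ratio of fragments to local background after the same constant is added to both. The largest q-value was 0.0099 among 37574 peaks (clone 4) and 0.0097 among 29889 peaks (clone 5) for PLAG1-S, but 0.049 among 9338 and 0.048 among 4369 for USF2, so that counts cannot be compared between factors. Depth per library is not given by these lists. From those columns the whole number of fragments at each summit and its local background were solved for, accepted within 0.001 of the deposited −log10 p, and given exact 95% Poisson intervals. Calls and recovery were tested on simulated data.

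Genes came from a RefSeq table (GRCh38.p14, 1 interval per gene, without exons), so that exonic and intronic positions are not distinguished. Start windows and sequences came from RefSeq promoters. Distances to a start use 1 annotated start per gene, which at PSMA1, PSMA6 and PSMG4 lies over 1 kb from either end. Named with values were co-bound genes, the 10 genes with the largest clone 4 reproducible PLAG1-S fold and genes with USF2 in at least 1 clone. The further values for PSMA1, PSMA2, PSMA4, PSMB1, PSMB5, PSMB8, PSMC3IP, PSMC4, PSMD5, PSME1, PSME2, PSMD13, PSMF1 and PSMG2 were chosen after they were seen. The gene rule, lists, motifs and alternatives were chosen with earlier results of these data known. Values of some co-bound genes of the wider pathway are not reported here. No test was run, because peaks and genes are not replicates and each factor had 2 clones. Python 3.11.15, numpy 2.4.6, pandas 2.3.3, scipy 1.17.1 and matplotlib 3.10.9 were used.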

Additional observations from a re-analysis of the deposited data

How the results depend on the processing

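The count of 32 genes with a reproducible PLAG1-S peak stayed within 1.5 times under 9 of 10 alternatives, from 25 (inside the gene, or nearest gene) to 39 (union of the clones), and fell to 16 when −log10 q had to reach 10. The count of 16 at the gene start ran from 11 to 22, within 1.5 times of it in all 6 alternatives. The USF2 and co-bound counts rested on few genes and on clone 5. Each of them, 4 in the main setting, was 0 at a −log10 q of at least 10, 10 in the union of the clones, and 2 with 50% reciprocal overlap, inside the gene, within 1 kb of either end, or when a peak counted for the nearest gene alone. With a single clone the USF2 count was 3 to 10 and the co-bound count 4 to 10, the higher value without clone 5 and the lower without clone 4. The median PLAG1-S fold of 6.99 was 9.80 at a −log10 q of at least 10 and 5.89 with nearest genes, and 5.6 to 6.80 when a clone was left out. Treating clone as a replicate block, pairing the factors within each clone, the co-bound count was 4. The cause of these changes was not tested. Fold enrichment at weak peaks rests on as few as 14 fragments, and a gene without a listed peak may hold binding below the authors' thresholds.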
